A study of Mus musculus with 12 samples.

Results

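The 10 genes described here, Atf4, Atf5, Ddit3, Trib3, Chac1, Asns, Xbp1, Hspa5, Herpud1 and Sesn2, are known to respond to ER stress or to belong to the integrated stress response. They were taken by gene name from the 44345 genes of the count table, and all 10 of the 10 passed the filter on low counts that left 16238 genes for testing. The rule that chose them uses gene names and no measured value, but the set was drawn up with earlier results of these data known. The data are RNA sequencing of whole sciatic dorsal root ganglia (DRG, L4 to L6, from both sides) of C57BL/6 mice aged 5 to 8 weeks, in 4 groups of 3 samples. Mice lived for 10 days in standard housing (SH) or in environmental enrichment (EE). They then had a sham operation, in which the sciatic nerve was only exposed (SH Sham and EE Sham), or a sciatic nerve axotomy (SNA), a complete transection of the nerve (SH SNA and EE + SNA). Ganglia were taken 24 h after surgery. Each sample pooled 2 mice, for 6 mice per group, and the spread between samples is that between pools. A whole ganglion holds glia, vessels and immune cells beside sensory neurons.

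The integrated stress response is a shared output of several kinases that phosphorylate the translation factor eIF2alpha when misfolded protein, amino acid shortage, heme shortage or viral RNA is sensed. General translation then slows while the mRNA of the transcription factor ATF4 is translated more, and ATF4 turns on genes of amino acid supply, of redox balance and of feedback. The unfolded protein response of the endoplasmic reticulum (ER) joins it through the kinase PERK and adds 2 further sensors, IRE1, which splices the Xbp1 mRNA, and ATF6, which is cleaved to a transcription factor. Both raise ER chaperones. In sensory neurons, cutting the peripheral axon starts a transcriptional injury program, and ATF3, a partner of ATF4, is its best known marker. The tables used here hold RNA per gene name, so neither the translation of Atf4 nor the splicing of Xbp1 is read in them.

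Promoter sequences of 4 of the genes are shown because they hold the letters through which ATF4 or ATF6 are known to act. The 250 bases before the RefSeq transcription start (GRCm38.p6) were found for all 10 genes, in 11 windows since Atf5 has 2 starts, and each window was searched on both strands for 3 motifs. The C/EBP-ATF response element, TGATGNAA, bound by ATF4 with a C/EBP partner, lay in 3 of the 10 genes and in 3.45% of 32851 promoters. The ER stress response element, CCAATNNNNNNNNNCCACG, bound by NF-Y and ATF6, lay in 1 of the 10 genes and in 0.113% of all promoters. The unfolded protein response element TGACGTGG, bound by XBP1, lay in 0 of the 10 genes and in 0.563% of all promoters. A match is only a run of letters, and an element outside the window or spelled otherwise would not be found. The lines below run 5′ to 3′ towards the transcription start, with the matched element in capitals, and on the Chac1 and Herpud1 lines the capitals are the element read on the other strand. The element of Hspa5 lies 65 to 47 bases before the start, that of Chac1 193 to 186 bases, that of Asns 23 to 16 bases and that of Herpud1 112 to 105 bases before it.
Hspa5 promoter, chr2:34771840-34772089, plus strand: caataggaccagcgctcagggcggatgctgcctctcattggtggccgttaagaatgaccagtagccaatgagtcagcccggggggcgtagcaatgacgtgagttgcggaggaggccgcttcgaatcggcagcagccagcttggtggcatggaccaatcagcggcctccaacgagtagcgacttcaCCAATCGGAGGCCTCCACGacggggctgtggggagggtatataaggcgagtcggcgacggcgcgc
Chac1 promoter, chr2:119350992-119351241, plus strand: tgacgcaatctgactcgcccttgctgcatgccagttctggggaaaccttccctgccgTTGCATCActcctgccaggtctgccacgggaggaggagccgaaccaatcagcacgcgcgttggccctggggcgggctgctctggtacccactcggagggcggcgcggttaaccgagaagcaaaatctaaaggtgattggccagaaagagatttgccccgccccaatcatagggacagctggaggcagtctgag
Asns promoter, chr6:7693210-7693459, minus strand: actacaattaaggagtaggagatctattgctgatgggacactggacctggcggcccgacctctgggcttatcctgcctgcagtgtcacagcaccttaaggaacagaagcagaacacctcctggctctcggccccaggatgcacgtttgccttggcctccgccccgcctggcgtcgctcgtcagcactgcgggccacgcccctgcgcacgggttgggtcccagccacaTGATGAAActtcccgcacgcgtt
Herpud1 promoter, chr8:94386179-94386428, plus strand: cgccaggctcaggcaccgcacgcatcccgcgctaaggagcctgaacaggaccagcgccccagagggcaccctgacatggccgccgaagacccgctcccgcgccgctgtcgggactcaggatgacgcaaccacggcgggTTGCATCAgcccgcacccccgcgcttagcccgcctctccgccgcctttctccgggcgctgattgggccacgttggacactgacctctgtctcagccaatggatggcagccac

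The samples held 11343579 to 22871460 reads on genes, the most in EE + SNA replicate 2, and TMM scaling factors ran from 0.978 to 1.02. Atf3 rose 4.34-fold in SH SNA against SH Sham (adjusted p = 7.38e-08) and 3.28-fold in EE + SNA against EE Sham (adjusted p = 4.24e-06, edgeR's quasi-likelihood test), with every SNA sample above every Sham sample, which was the check of the surgery labels. Levels are given in CPM, the reads of a gene scaled to the TMM-adjusted library total. Markers of sensory neurons were present in all samples, with a summed level of 13457 to 16320 CPM. Markers of several cell types moved with surgery. Over both housings 6 of 10 sensory neuron markers fell, their sum going from 14178 to 16320 CPM in the Sham samples and from 13457 to 14544 CPM in the SNA samples, while 6 of 7 Schwann cell markers rose, with sums of 6560 to 9081 CPM after Sham and 7838 to 12281 CPM after SNA. Of 12 macrophage markers 8 rose, with sums of 85.8 to 101 CPM after Sham and 109 to 158 CPM after SNA. In this fit 11.4% of all genes tested were called higher and 11% lower. Of the markers tested, fewer were called higher for satellite glia (2 of 7), fibroblasts (2 of 6), endothelium (1 of 6) and neutrophils (1 of 8). The same held for red blood cells (1 of 3), lymphocytes (1 of 4) and skeletal muscle (0 of 6). SH SNA replicate 2 stood apart by skeletal muscle RNA, 837 CPM against 2.70 to 151 CPM elsewhere, and EE + SNA replicate 3 by neutrophil RNA, 783 CPM against 75.8 to 334 CPM elsewhere. No list had a marker at 0 in every library. The part of these shifts in the results was not tested, and in whole ganglia a change in the share of a cell type and a change in RNA per cell cannot be told apart.

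Levels of the 10 genes differed widely after the sham operation. On the FPKM scale, which is per length, Atf4 was the most abundant in SH Sham at 119 ± 6.47 FPKM (SD, n = 3), followed by Hspa5 at 90.7 ± 4.30 FPKM and Asns at 56.8 ± 1.08 FPKM. Atf5 at 29.8 ± 2.24 FPKM and Xbp1 at 27.6 ± 1.58 FPKM overlapped in their samples, so their order is not resolved. Herpud1 stood at 19.96 ± 1.81 FPKM and Ddit3 at 16.9 ± 0.75 FPKM. Chac1 was low at 5.45 ± 0.87 FPKM. Sesn2 at 1.84 ± 0.39 FPKM and Trib3 at 1.81 ± 0.11 FPKM were lowest and overlapped with each other. These low genes rest on few reads: Trib3 had 43 to 160 counts per sample, Sesn2 55 to 231 and Chac1 96 to 446, against 2278 to 5876 for Atf4. All other neighbours in that order were separated in each of their 3 samples.

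**Figure D1:**
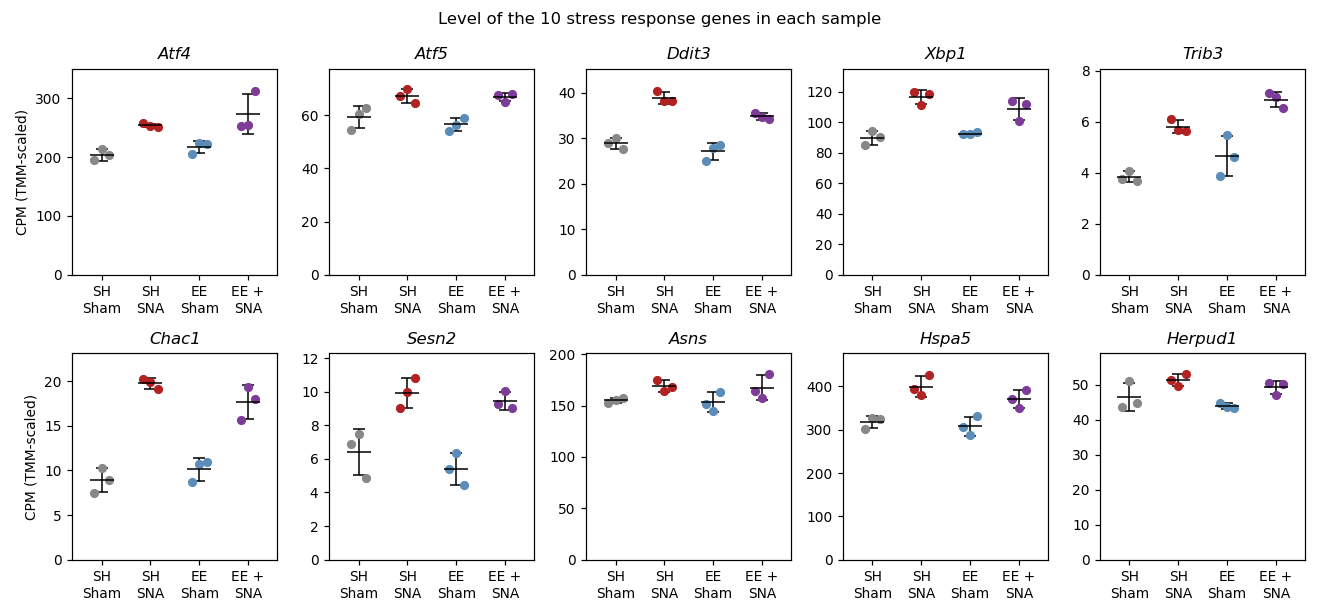
Level of each of the 10 genes in every sample, in TMM-scaled CPM (vertical axis from 0, a scale of its own per gene), by group (horizontal axis). Points are the 3 samples of a group, and the bars give the mean and SD. Chac1 sits at 7.51 to 11.0 CPM in the 6 Sham samples and at 15.7 to 20.3 CPM in the 6 SNA samples, whereas for Asns the Sham and SNA samples overlap.

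The first question was what the axotomy did to these genes, in each housing and over both. All 10 rose after SNA in the fit over both housings, 6 SNA against 6 Sham samples with housing as a term, against 11.4% of all tested genes called higher and 11% called lower at an adjusted p of 0.05. Their log2 fold changes ran from 0.13 for Asns to 0.98 for Chac1, with a median of 0.31, beside a median of 0.0071 over all genes tested. For 8 of the 10 genes every SNA sample lay above every Sham sample, which held for 5.47% of all genes. The genes were chosen with earlier results of these data known, so these shares do not test the set. In SH alone 7 of the 10 genes rose, where 6.06% of all genes did, and in EE alone 3 of the 10 rose, where 2.51% did. The paper takes EE Sham from a previously described dataset, and the labels name no sequencing batch. If that set was sequenced apart, surgery and batch cannot be told apart in EE + SNA against EE Sham, and the same 3 samples enter the fit over both housings. SH SNA against SH Sham does not use them, but the labels do not say whether those groups were sequenced together either. The direction was higher after SNA for 10 of 10 genes in both housings. The 3 SNA samples lay above the 3 Sham samples for 9 of the 10 genes in SH, as for 14.3% of all genes, and for 9 of the 10 in EE, as for 13.4% of all genes. The count in EE was 1 without EE Sham replicate 3, and it was 8 with all 12 samples in one fit. The smaller count in EE does not show that the housings differed, which the interaction tests.

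**Figure D2:**
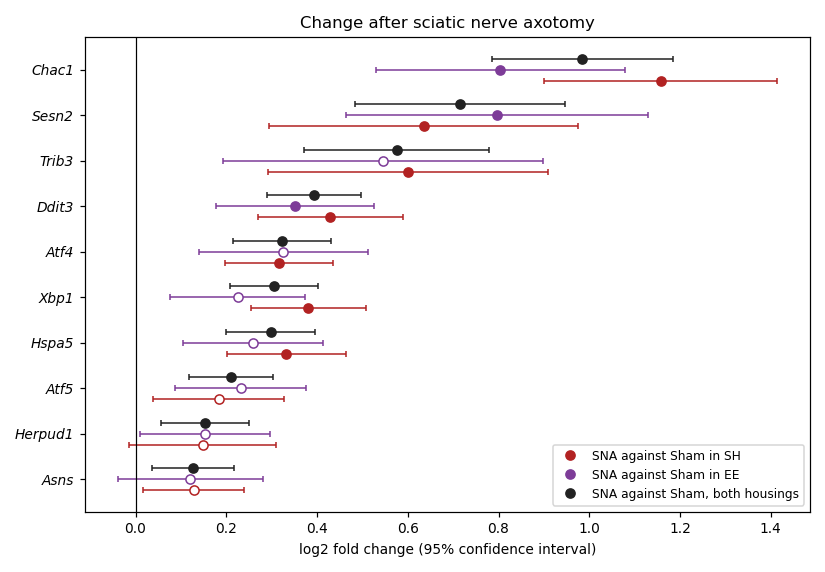
Log2 fold change after SNA (horizontal axis, points with 95% confidence intervals) for each of the 10 genes (vertical axis, ordered by the fit over both housings), in SH (red), in EE (purple) and over both housings (black). Filled points passed an adjusted p of 0.05. All 30 points lie above 0, from 0.12 for Asns in EE to 1.16 for Chac1 in SH, and 7, 3 and 10 points are filled in SH, in EE and over both.

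Chac1 (ENSMUSG00000027313, chr2:119351229-119354381, plus strand), which encodes an enzyme that breaks down glutathione and is a strong target of ATF4, changed most. It was at 7.51, 10.3 and 8.96 CPM in SH Sham and at 20.3, 19.9 and 19.1 CPM in SH SNA. After EE the Sham samples held 8.66, 10.7 and 11.0 CPM and the SNA samples 15.7, 19.4 and 18.0 CPM. The 6 SNA samples were all higher than the 6 Sham samples, and the lowest of them was EE + SNA replicate 1. Chac1 rose 2.23-fold in SH (log2 fold change 1.16, SE 0.12, adjusted p = 6.79e-05) and 1.75-fold in EE (log2 fold change 0.80, SE 0.13, adjusted p = 0.00358). Over both housings it rose 1.98-fold (log2 fold change 0.98, SE 0.094, adjusted p = 7.98e-07), and these calls held without any single sample.

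Sesn2 (ENSMUSG00000028893, chr4:132492032-132510501, minus strand) encodes sestrin 2, a leucine sensor that restrains mTORC1 signalling and is induced by ATF4 and by p53. Its samples held 6.86, 7.46 and 4.88 CPM in SH Sham and 9.02, 9.97 and 10.8 CPM in SH SNA. In EE Sham they held 5.41, 6.38 and 4.47 CPM, and in EE + SNA 9.26, 10.1 and 9.03 CPM. Every SNA sample was above every Sham sample, and the Sham samples were the more scattered of the 2 kinds in both housings. Sesn2 rose 1.55-fold in SH (log2 fold change 0.64, SE 0.16, adjusted p = 0.0203) and 1.74-fold in EE (log2 fold change 0.80, SE 0.15, adjusted p = 0.0111). The SH call was lost without SH Sham replicate 3 (adjusted p = 0.0623) or SH SNA replicate 3 (adjusted p = 0.0693), and the EE call without EE Sham replicate 3 (adjusted p = 0.0656). Over both housings the rise was 1.64-fold (log2 fold change 0.72, SE 0.11, adjusted p = 0.000132).

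Trib3 (ENSMUSG00000032715, chr2:152337422-152344032, minus strand) encodes a pseudokinase that is induced by ATF4 and CHOP and that feeds back on ATF4 activity. SH Sham samples held 3.75, 4.09 and 3.68 CPM and SH SNA samples 6.12, 5.66 and 5.65 CPM. EE Sham samples held 3.88, 5.46 and 4.63 CPM and EE + SNA samples 7.12, 6.96 and 6.53 CPM. The SNA samples stayed above the Sham samples in both housings, although EE Sham replicate 2 came close to the lowest SH SNA sample. Trib3 rose 1.52-fold in SH (log2 fold change 0.60, SE 0.14, adjusted p = 0.0163), a call that was lost without SH Sham replicate 1 (adjusted p = 0.058), SH Sham replicate 3 (adjusted p = 0.0613) or SH SNA replicate 1 (adjusted p = 0.0712), and with DESeq2 (adjusted p = 0.0676). In EE its log2 fold change was 0.55 (95% interval 0.19 to 0.90, adjusted p = 0.0781), which did not pass. Over both housings it rose 1.49-fold (log2 fold change 0.58, SE 0.097, adjusted p = 0.000305).

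Of the 4 transcription factors among the 10 genes, Ddit3 had the largest log2 fold change of SNA against Sham within each housing and over both. Ddit3 (ENSMUSG00000025408, chr10:127290774-127296288, plus strand) encodes CHOP, a C/EBP family factor of late ER stress. It was at 29.0, 30.1 and 27.7 CPM in SH Sham and at 40.4, 38.1 and 38.1 CPM in SH SNA. The EE Sham samples held 25.0, 27.8 and 28.6 CPM and the EE + SNA samples 35.6, 34.7 and 34.2 CPM. No Sham sample reached an SNA sample, and the 3 EE + SNA samples were all below the 3 SH SNA samples. Ddit3 rose 1.35-fold in SH (log2 fold change 0.43, SE 0.074, adjusted p = 0.00249) and 1.28-fold in EE (log2 fold change 0.35, SE 0.080, adjusted p = 0.0281). The EE call was lost without EE Sham replicate 1 (adjusted p = 0.0931), EE Sham replicate 3 (0.0752), EE + SNA replicate 1 (0.113) or EE + SNA replicate 2 (0.0735). Over both housings the rise was 1.31-fold (log2 fold change 0.39, SE 0.049, adjusted p = 1.55e-05). Of its 1713 exon bases, 68 are shared with Mars and 13 with Gm4189 on the other strand, and 105 with another gene model of the same name.

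Atf4 (ENSMUSG00000042406, chr15:80255184-80257541, plus strand) encodes the central factor of the integrated stress response, and its own mRNA can also rise with stress. SH Sham samples held 195, 215 and 204 CPM, and SH SNA samples 258, 253 and 252 CPM. EE Sham samples were at 206, 224 and 222 CPM, and EE + SNA samples at 252, 256 and 313 CPM. All SNA samples were above all Sham samples, and EE + SNA replicate 3, the sample with the most neutrophil RNA, was the highest. Atf4 rose 1.24-fold in SH (log2 fold change 0.32, SE 0.055, adjusted p = 0.00264). In EE the log2 fold change was 0.33 (95% interval 0.14 to 0.51), and it missed the threshold (adjusted p = 0.0524). Over both housings Atf4 rose 1.25-fold (log2 fold change 0.32, SE 0.051, adjusted p = 0.000174).

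Xbp1 (ENSMUSG00000020484, chr11:5520659-5525893, plus strand) encodes the factor whose mRNA IRE1 splices. It was at 84.7, 93.9 and 90.2 CPM in SH Sham and at 120, 111 and 118 CPM in SH SNA. EE Sham samples held 92.0, 91.9 and 93.2 CPM and EE + SNA samples 114, 100.4 and 112 CPM. The groups did not overlap, with EE + SNA replicate 2 nearest to the Sham samples. Xbp1 rose 1.30-fold in SH (log2 fold change 0.38, SE 0.059, adjusted p = 0.00123). In EE its log2 fold change was 0.22 (95% interval 0.076 to 0.37, adjusted p = 0.0842). Over both housings it rose 1.24-fold (log2 fold change 0.31, SE 0.046, adjusted p = 0.000102).

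Atf5 (ENSMUSG00000038539, chr7:44812256-44816658, minus strand) encodes a relative of ATF4 that is translated by the same eIF2alpha switch and serves the mitochondrial stress response. SH Sham samples held 54.5, 60.5 and 62.5 CPM and SH SNA samples 67.1, 69.6 and 64.5 CPM. EE Sham samples held 54.0, 56.4 and 59.1 CPM and EE + SNA samples 67.4, 64.9 and 67.9 CPM. Every SNA sample was above every Sham sample, by a narrow gap in SH. Neither housing alone passed, with a log2 fold change of 0.18 in SH (95% interval 0.040 to 0.33, adjusted p = 0.101) and 0.23 in EE (95% interval 0.088 to 0.38, adjusted p = 0.069). Over both housings Atf5 rose 1.16-fold (log2 fold change 0.21, SE 0.044, adjusted p = 0.00214). In its 1993 exon bases, 82 are shared with Nup62 and Il4i1 on the other strand, and reads there cannot be told apart where counting ignored strand.

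Asns (ENSMUSG00000029752, chr6:7675169-7693254, minus strand), asparagine synthetase and a classical ATF4 target, moved least although its level is high. SH Sham samples held 153, 156 and 157 CPM and SH SNA samples 175, 164 and 168 CPM. EE Sham samples held 151, 145 and 164 CPM and EE + SNA samples 165, 158 and 181 CPM. The samples were apart in SH and overlapped in EE. Its log2 fold change was 0.13 in SH (95% interval 0.017 to 0.24, adjusted p = 0.14) and 0.12 in EE (95% interval -0.039 to 0.28, adjusted p = 0.388). Over both housings it rose 1.09-fold (log2 fold change 0.13, SE 0.043, adjusted p = 0.0428), a call that was lost in 10 of 12 fits that left out 1 sample, with adjusted p from 0.0532 without SH SNA replicate 2 to 0.105 without EE + SNA replicate 3. It held only without EE Sham replicate 3 or EE + SNA replicate 2.

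The last 2 genes serve the ER itself. Hspa5 (ENSMUSG00000026864, chr2:34771970-34777547, plus strand) encodes BiP, the main ER chaperone, which also holds the ER stress sensors inactive. SH Sham samples held 303, 326 and 325 CPM and SH SNA samples 393, 380 and 426 CPM. EE Sham samples held 306, 288 and 332 CPM and EE + SNA samples 370.5, 350.2 and 392 CPM. All SNA samples were above all Sham samples, with EE + SNA replicate 2 lowest. Hspa5 rose 1.26-fold in SH (log2 fold change 0.33, SE 0.060, adjusted p = 0.0036). In EE its log2 fold change was 0.26 (95% interval 0.10 to 0.41, adjusted p = 0.0601), and over both housings it rose 1.23-fold (log2 fold change 0.30, SE 0.046, adjusted p = 0.000156).

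Herpud1 (ENSMUSG00000031770, chr8:94386438-94395377, plus strand) encodes an ER membrane protein of ER-associated degradation. It was at 43.7, 51.1 and 44.7 CPM in SH Sham and at 51.5, 49.6 and 53.1 CPM in SH SNA. EE Sham samples held 44.8, 43.8 and 43.4 CPM and EE + SNA samples 50.5, 47.2 and 50.2 CPM. In SH the groups overlapped through SH Sham replicate 2, whereas in EE they were apart. Its log2 fold change was 0.15 in SH (95% interval -0.014 to 0.31, adjusted p = 0.244) and 0.15 in EE (95% interval 0.011 to 0.30, adjusted p = 0.209). Over both housings it rose 1.11-fold (log2 fold change 0.15, SE 0.046, adjusted p = 0.0226), a call lost without SH Sham replicate 1 (adjusted p = 0.0669), SH Sham replicate 3 (0.0518), SH SNA replicate 3 (0.0515) or EE + SNA replicate 1 (0.056).

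With both SH SNA replicate 2 and EE + SNA replicate 3 left out, the samples rich in muscle and in neutrophil RNA, 8 of the 10 genes were still called higher after SNA over both housings. Asns (adjusted p = 0.13) and Herpud1 (adjusted p = 0.0547) were not.

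EE + SNA was also set against SH Sham, the control that SH SNA has too, so those comparisons share their 3 Sham samples. Against SH Sham, 7 of the 10 genes rose in EE + SNA, where 6.87% of all genes did. The log2 fold changes of Chac1 were 1.16 in SH SNA and 1.004 in EE + SNA, and those of Sesn2 0.64 and 0.57. Trib3 stood at 0.60 in SH SNA and 0.84 in EE + SNA. For Atf4 the pair was 0.32 and 0.42, for Ddit3 0.43 and 0.27, for Xbp1 0.38 and 0.27, and for Hspa5 0.33 and 0.22. Atf5 at 0.17, Asns at 0.11 and Herpud1 at 0.08 did not pass in EE + SNA. With the replicate number as a block, Ddit3 (adjusted p = 0.0502), Xbp1 (0.0539) and Hspa5 (0.0578) were lost and 4 genes remained called. Leaving out SH Sham replicate 1, SH Sham replicate 3 or EE + SNA replicate 1 left 3 called.

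The further question was whether housing changed these genes. None of the 10 was called in any of the 4 tests of housing at an adjusted p of 0.05, by edgeR's quasi-likelihood test, by its likelihood ratio test or by DESeq2. EE Sham against SH Sham called 0.00616% of all genes, and 0 of the 10 genes passed an unadjusted p of 0.05 where 2.97% of all genes did. Here too EE Sham enters, so that housing and dataset cannot be told apart in that comparison. The EE Sham samples also enter the fit over both surgeries. After SNA, where 0% of all genes passed the adjusted threshold, 1 of the 10 genes passed an unadjusted p of 0.05, as did 4.1% of all genes, and over both surgeries 0% passed adjusted and 2 of the 10 unadjusted, as did 4.69% of all genes. Among 10 genes, counts of 1 or 2 are no result about the set. Without SH Sham replicate 3 or EE Sham replicate 1, 1 gene passed unadjusted for EE Sham against SH Sham.

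After the sham operation the samples of both housings overlapped for all 10 genes. The log2 difference EE Sham minus SH Sham ran from -0.24 for Sesn2 (95% interval -0.64 to 0.16) to 0.29 for Trib3 (95% interval -0.091 to 0.67). For the abundant genes the intervals were narrower. Hspa5 differed by -0.045 (95% interval -0.20 to 0.11), Asns by -0.019 (95% interval -0.16 to 0.13) and Xbp1 by 0.044 (95% interval -0.10 to 0.19).

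After SNA, Ddit3 was the gene at the unadjusted threshold. Its 3 EE + SNA samples, 34.2 to 35.6 CPM, lay below its 3 SH SNA samples, 38.1 to 40.4 CPM, and the log2 difference was -0.16 (95% interval -0.31 to -0.0084, adjusted p = 0.989). It no longer passed without SH SNA replicate 1, EE + SNA replicate 1 or EE + SNA replicate 2, when 0 of the 10 genes passed. Trib3 lay the other way, with EE + SNA samples at 6.53 to 7.12 CPM above SH SNA samples at 5.65 to 6.12 CPM, a log2 difference of 0.24 (95% interval -0.048 to 0.53, adjusted p = 0.989). For the other 8 genes the samples of both housings overlapped. Chac1 differed by -0.15 (95% interval -0.37 to 0.061), Hspa5 by -0.11 (95% interval -0.25 to 0.032) and Atf4 by 0.11 (95% interval -0.065 to 0.28). Over both surgeries Ddit3 and Trib3 were the 2 genes at an unadjusted p of 0.05, with log2 differences of -0.13 (95% interval -0.23 to -0.023, adjusted p = 0.997) and 0.26 (95% interval 0.059 to 0.47, adjusted p = 0.996). Without SH SNA replicate 1, 1 of the 10 genes passed.

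**Figure D3:**
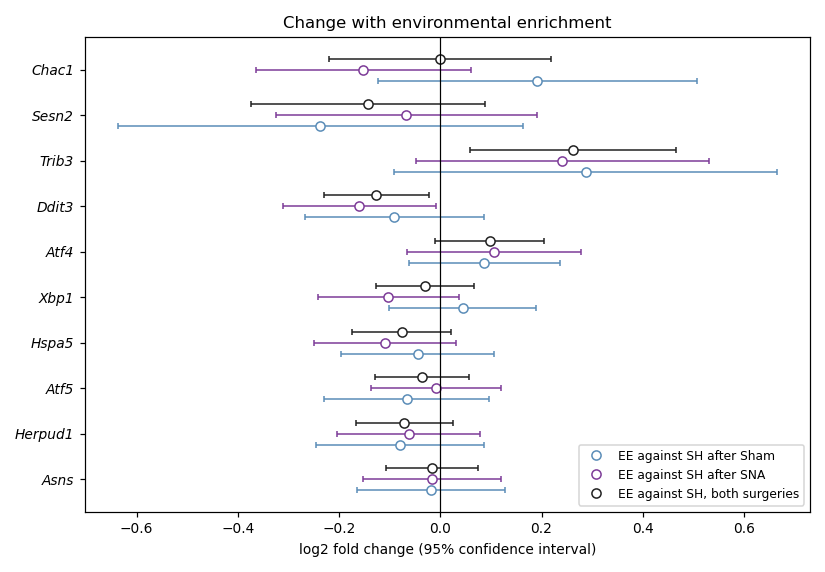
Log2 fold change of EE against SH (horizontal axis, points with 95% confidence intervals) for each of the 10 genes (vertical axis, in the order of their change after SNA), after Sham (blue), after SNA (purple) and over both surgeries (black). All points are open since none passed an adjusted p of 0.05. They lie between -0.24 for Sesn2 and 0.29 for Trib3, both after Sham.

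Whether SNA acted differently in EE than in SH was asked by the interaction of surgery and housing over all 12 samples. EE Sham enters here as well, so if that set was sequenced apart, housing and dataset cannot be told apart. The interaction passed for 0 of the 10 genes, at an adjusted p of 0.05 (0% of all genes) and at an unadjusted one (2.61% of all genes). Chac1 was nearest, with a log2 difference between the housings' responses of -0.34 (95% interval -0.72 to 0.027, adjusted p = 1.0), the response being the smaller in EE. Without SH Sham replicate 2, EE Sham replicate 1 or EE + SNA replicate 2, 1 gene passed the unadjusted threshold. Xbp1 followed at -0.15 (95% interval -0.33 to 0.039). The interval for Hspa5 ran from -0.27 to 0.14 and that for Atf4 from -0.21 to 0.24, beside responses of 0.30 and 0.32 over both housings.

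Other genes of the pathway were read from lists chosen by function, in the fit over both housings. Their counts are read beside the 11.4% of all genes called higher and the 11% called lower in this fit. Of the 7 genes of eIF2alpha itself (Eif2s1), of its kinases and of the phosphatase that reverses them, 3 rose and 0 fell, with a median log2 fold change of 0.042. Ppp1r15a, the stress-induced phosphatase subunit GADD34, rose by a log2 fold change of 0.67 (adjusted p = 5.58e-07), Eif2ak3, the ER kinase PERK, by 0.26 (adjusted p = 0.000572) and Ppp1r15b, the constitutive subunit, by 0.14 (adjusted p = 0.0463). The Ppp1r15b call was lost in 8 of 12 fits that left out 1 sample (adjusted p up to 0.118), which left 2 to 3 genes of the list called. Of 10 further sensors and partners of ATF4, 6 rose and 0 fell (median 0.22), among them Atf3 by 1.92, the stress-induced cofactor Nupr1 by 0.44, the C/EBP partner Cebpg by 0.24 and Ern1, which encodes IRE1, by 0.22. No fit that left out 1 sample reached this count. It was 3 to 5 there, with 3 without SH Sham replicate 3 or SH SNA replicate 3, and Nupr1 was lost in 9 of 12 (adjusted p up to 0.106) and Ern1 in 5 of 12 (up to 0.074).

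Amino acid supply is the best known branch downstream of ATF4, and its lists were not tested against each other. They are read beside the 11.4% of all genes called higher and the 11% called lower in this fit. Of 9 amino acid transporters 6 rose and 0 fell, with a median of 0.32. Slc7a3, a cationic amino acid transporter, rose by 0.43, and Slc7a5 and Slc3a2, which form the large neutral amino acid exchanger, by 0.38 and 0.30. The neutral amino acid transporter Slc1a4 rose by 0.32. Of 11 enzymes of amino acid and one-carbon metabolism 3 rose and 1 fell, with a median of 0.053. Shmt2 and Mthfd2, mitochondrial one-carbon enzymes, rose by 0.25 and 0.23, and Psat1 of serine synthesis by 0.19, whereas Aldh1l2, also of the mitochondrial one-carbon pathway, fell by 0.38 on the log2 scale. Of 20 cytosolic aminoacyl-tRNA synthetases 5 rose and 1 fell, with a median of 0.079, led by Cars at 0.34, Iars and Gars both at 0.27 and Aars at 0.21.

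Of 13 other stress genes listed as induced through ATF4 or CHOP, 10 passed the filter, and 3 of these rose and 2 fell (median 0.10). The counts of this paragraph too are read beside the 11.4% of all genes called higher and the 11% called lower. Gadd45a, a growth arrest and DNA damage gene also known as an early nerve injury gene, rose by 1.67, more than any of the 10 genes. Eif4ebp1, a brake on cap-dependent translation, rose by 0.59 and Bbc3, the pro-apoptotic PUMA, by 0.51 (lost in 3 of 12 fits without 1 sample, those without SH Sham replicate 3, SH SNA replicate 1 or EE Sham replicate 1), while Vegfa fell by 0.20 on the log2 scale. The other gene of this list that fell was Sesn3, by 0.28 on the log2 scale. The ER's own machinery had small median log2 fold changes, as had the synthetases (0.079), the enzymes (0.053) and the eIF2alpha list (0.042). Those of the amino acid transporters (0.32) and of the sensors and partners of ATF4 (0.22) were larger. Of 18 ER chaperones and foldases 4 rose and 0 fell, with a median of 0.084, and the largest was Sdf2l1, a BiP cofactor, at 0.39, followed by Creld2 at 0.28, Dnajb9 at 0.21 and the disulfide isomerase P4hb at 0.16. Leaving out 1 sample gave 2 to 4 called, with 2 without SH Sham replicate 1, SH Sham replicate 3, SH SNA replicate 2, SH SNA replicate 3 or EE Sham replicate 1. Creld2 was lost in 8 of these 12 fits, P4hb in 5 and Dnajb9 in 2, and 1 gene was called without both SH SNA replicate 2 and EE + SNA replicate 3. Of 16 genes of ER-associated degradation and translocation 15 were tested and 0 were called by the quasi-likelihood test, with a median of 0.071. The likelihood ratio test and DESeq2 also called 0 higher, the fit with no filter 1 and that with the replicate block 3. The count was 1 without SH Sham replicate 3, EE Sham replicate 1, EE Sham replicate 2, EE + SNA replicate 2 or EE + SNA replicate 3. For housing over both surgeries 0 genes of any of these lists were called, but 0% of all genes tested were, so this is no result about the lists. For scale, 6 of 6 injury response genes rose, Atf3 again among them, with a median of 1.21, Sprr1a reaching 1.92, Sox11 1.33 and the neuropeptide gene Gal 1.09.

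**Figure D4:**
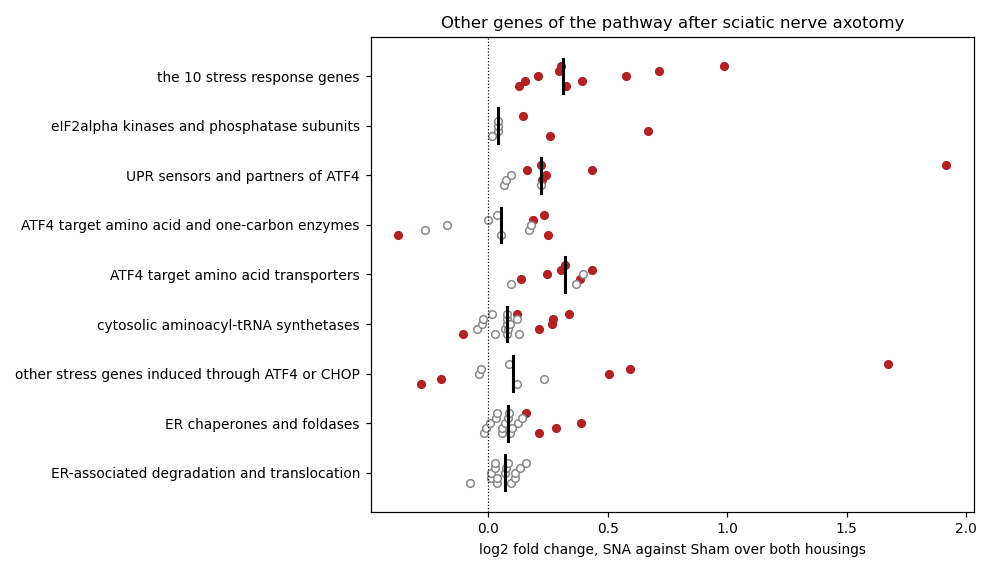
Log2 fold change after SNA over both housings (horizontal axis) for the 10 genes (top line) and for 8 lists of other pathway genes (lines below). Each point is a gene, filled where it passed an adjusted p of 0.05, and the vertical bar is the list's median, 0.31 for the 10 genes and 0.071 for ER-associated degradation and translocation.

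The 5 genes whose pattern was most like that of Chac1, the member with the largest change, were sought among 10223 tested genes with a mean of at least 10 CPM, by Pearson's r of log2 CPM over the 12 samples. They were Tnfrsf12a (r = 0.985), Med22 (0.981), Cdkn1a (0.980), Plekho1 (0.980) and Rnh1 (0.977). The 12 points of each r share their libraries and the difference between surgeries, so the values describe likeness in these samples only. All 5 were higher in every SNA than in every Sham sample. Since Chac1 was too, and they were picked by likeness to it, that is no separate result.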

How the data were processed

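The data are mRNA sequencing of whole DRG in 4 groups of 3 samples. The authors aligned paired reads to mm10 with TopHat 2.0.12 and Bowtie2 2.2.3 and, per the labels, used HTSeq 0.6.0 to count reads by gene name, and the strand setting is not given in the sources used here. The deposited table holds raw counts, and 5 summary lines were left out of library sizes. Of each library 46.7 to 47.6% was on no gene, 8.49 to 9.28% was not unique and 0.314 to 0.37% ambiguous. The deposited FPKM, made by the authors from the same reads, matched the counts (CV of the ratio at most 0.0162% over 14446 genes) and were used only to compare levels between genes.

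In R 4.3.3 counts were filtered with filterByExpr (10 counts, total of 15), scaled by TMM and tested two-sided with edgeR 4.0.16 (glmQLFit, glmQLFTest). The groups of each pair were fitted on their 6 samples, and the interaction and the additive effects on all 12. P-values were adjusted by Benjamini-Hochberg over 16238 genes, and calls are at 0.05. The CPM printed are TMM-scaled. Intervals are 95%. Alternatives were the likelihood ratio test, DESeq2 1.42.0, library size alone as scaling, no filter, a replicate block, 1 fit over all samples, and leaving out each sample. The fits were also run on simulated counts, with set changes larger than those of most of the 10 genes. That run does not show how well smaller changes are recovered. For EE Sham and SH Sham, deviations of same-numbered samples correlated at r 0.331, 0.137 and 0.111. Samples of unlike number in these groups ran from -0.332 to 0.194, so a pairing is not shown. The main fit held no pair term, and the replicate block was an alternative only. In the other pairs same-numbered samples ran from -0.235 to 0.236. For EE + SNA and SH SNA they were at 0.0573, 0.113 and 0.126, all above the samples of unlike number, at -0.123 to 0.0403. The labels name no pairing, and whether these samples were paired was not tested. The study tested with the likelihood ratio test at an unadjusted p.

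All 10 genes were to be named, and of each list the up to 4 genes with the largest change in SH SNA among those called over both housings, with Atf3 as a check and the 5 genes most like the leading member. Sesn3 was named outside that rule. The genes and lists were chosen with earlier results of these data known. Of the red blood cell markers 3 of 5 matched a name, with sums of 111 to 307 CPM after Sham and 175 to 595 CPM after SNA. The sums of the other marker lists ran over all samples from 2037 to 2678 CPM for satellite glia, 655 to 1036 for fibroblasts, 91.0 to 129 for endothelium, 3.21 to 12.9 for lymphocytes, 3.34 to 4.78 for epidermis and 116 to 169 for immediate early genes.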

Additional observations from a re-analysis of the deposited data

How the results depend on the processing

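The calls of SNA against Sham in EE depended most on the processing. With 3 of the 10 genes called by edgeR's quasi-likelihood test, 5 were called with DESeq2 and with the replicate block, 6 with no filter, 7 by the likelihood ratio test and 8 with all 12 samples in one fit, and Atf4 and Hspa5 were gained in each of these. For EE + SNA against SH Sham 4 were called with the replicate block, where 7 were. Leaving out 1 sample left 5 to 7 called in SH, 3 to 6 for EE + SNA against SH Sham, 1 to 4 in EE (1 without EE Sham replicate 3) and 8 to 10 over both housings. Other losses were Trib3 in SH with DESeq2 (adjusted p = 0.0676), Ddit3 with DESeq2 (0.0616) and Hspa5 with library size alone (0.0507) for EE + SNA against SH Sham, and Asns over both housings with library size alone (0.0574) and with no filter (0.0702). The fit without the samples rich in muscle and neutrophil RNA was chosen after seeing the data. For housing, no alternative called any of the 10 genes. At an unadjusted p, 0 genes passed for EE + SNA against SH SNA by the likelihood ratio test, DESeq2, no filter and the replicate block, where 1 had, 1 passed for the interaction with the replicate block, where 0 had, and 1 for EE over both surgeries with DESeq2, where 2 had. Leaving out 1 sample gave 0 to 1, 0 to 1, 0 to 1 and 1 to 3 genes for EE Sham against SH Sham, EE + SNA against SH SNA, the interaction and both surgeries. For EE Sham against SH Sham, which the main fit treated as unpaired, the replicate block changed no call of the 10 genes.

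Reversals of sign were limited to differences near 0. The interaction of Asns was 0.0020 and, with DESeq2, -0.0067. Leaving out 1 sample turned the sign of Asns in EE Sham against SH Sham (-0.068 to 0.017), of Asns (-0.073 to 0.028) and Atf5 (-0.035 to 0.015) in EE + SNA against SH SNA, of Atf4 (-0.091 to 0.067), Asns (-0.059 to 0.052), Herpud1 (-0.056 to 0.053) and Trib3 (-0.17 to 0.088) in the interaction, and of Chac1 (-0.067 to 0.051), Asns (-0.045 to 0.0027) and Xbp1 (-0.060 to 0.0040) in EE over both surgeries. The cause was not tested. A group holds 3 pools, and Trib3 rests on 43 to 160 counts per sample. The intervals of the housing differences give the sizes that these data leave possible.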
